A study of Homo sapiens with 7 samples.

Results

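The cytosolic ribosomal protein genes encode the protein components of the ribosome that translates messenger RNA in the cytoplasm. They were taken here as the autosomal protein-coding genes whose symbols are RPL or RPS with a number and an optional A, L, X or P, together with RPLP0, RPLP1, RPLP2 and RPSA, without the RPS6 kinase genes. The rule gave 77 of 19229 autosomal protein-coding genes: 40 genes of the large subunit, 30 of the small subunit, 3 of the stalk and 4 paralogs (RPL3L, RPL10L, RPL39L and RPS27L). Chromatin contacts at their promoters were read from HiChIP for H3K27ac, the histone acetylation found at active promoters and enhancers, in 7 samples of 3 human cancer cell lines. Ishikawa, an endometrial adenocarcinoma line, had 2 samples given the vehicle DMSO and 2 given 10 nM 17β-estradiol (E2), each for 1 h, with chromatin cut by DpnII. T-47D, a ductal breast carcinoma line, had 1 sample, and LNCaP, a prostate carcinoma line, had 2, all cut by MboI, and the labels state no treatment for these 3.

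Each line had a single merged list of loops, so no value has a replicate error and no test between lines was possible. DMSO and E2 were not compared, because nothing ties the 4 separately sorted parts of the Ishikawa list to samples. A read pair count reflects both the mark and the contact, which cannot be told apart. A loop is a pair of different anchors on the same chromosome joined by at least 3 read pairs, and a gene with no loop may have contacts under that minimum. The Ishikawa list held 163530 loops and 1040329 read pairs, that of T-47D 42027 and 351260, and that of LNCaP 149226 and 1805322. Enzyme, sonication, read length and sequencing depth all changed between Ishikawa and the other lines and cannot be told apart from the line. Per the methods, Ishikawa samples were sequenced to more read pairs each than those of T-47D and LNCaP. The read pairs held in a list of loops therefore do not rank the lines by sequencing depth. The 9 genes checked as marks of the 3 lines each had their highest percentile of promoter read pairs in their own line. TMPRSS2, a mark of LNCaP, was nearly as high in Ishikawa (percentile 98.4 against 98.9). KLK2 and KLK3 had the same 2936 read pairs in LNCaP, so they are not separate checks.

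A ribosome holds a single copy of nearly every one of its proteins, so their genes are expressed together and at high levels in almost every growing cell. The large subunit forms peptide bonds, the small subunit reads the messenger RNA, and the stalk proteins P0, P1 and P2 draw translation factors to the large subunit. Their messenger RNAs typically begin with a tract of pyrimidines, the terminal oligopyrimidine (TOP) motif, through which the mTOR pathway controls their translation, and many of the genes carry small nucleolar RNAs (snoRNAs) in their introns.

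The start sites of 7 genes to which the results return are shown first, from GRCh37 with GENCODE start sites, as the 40 bases before and the first 10 bases from the annotated start of the canonical transcript. Capitals mark a TOP tract, a C at the start followed by at least 4 C or T. RPL41 and RPS26 are neighbours whose promoters were joined in all 3 lists, RPL10A, RPLP0 and RPS29 had a distal contact found in all 3 lists, RPL23A had the most read pairs in LNCaP, and RPS23 had no loop.
RPL41, chr12:56510377-56510426, plus strand: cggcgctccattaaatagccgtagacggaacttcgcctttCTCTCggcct
RPS26, chr12:56435662-56435711, plus strand: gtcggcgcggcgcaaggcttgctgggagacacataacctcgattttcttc
RPL10A, chr6:35436138-35436187, plus strand: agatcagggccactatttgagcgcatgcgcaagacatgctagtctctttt
RPLP0, chr12:120638905-120638954, minus strand: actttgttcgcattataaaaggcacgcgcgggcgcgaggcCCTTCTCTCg
RPS29, chr14:50053089-50053138, minus strand: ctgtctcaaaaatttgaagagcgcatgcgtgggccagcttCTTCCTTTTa
RPL23A, chr17:27046963-27047012, plus strand: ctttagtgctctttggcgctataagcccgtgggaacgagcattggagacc
RPS23, chr5:81574164-81574213, minus strand: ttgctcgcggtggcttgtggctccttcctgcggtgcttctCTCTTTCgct

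The TOP tract was present exactly at the annotated start of 55 of the 77 genes (71.4%, 95% Wilson interval 60.5% to 80.3%) and of 4.56% of the 18978 autosomal protein-coding genes with a canonical start. When the tract could begin up to 5 bases to either side, 63 ribosomal protein genes and 21.8% of all genes had it. The letters CCGGAA, which E26-type (ETS) factors recognise, lay on either strand within 250 bases before and 50 after the start of 43 genes (55.8%), against 23.0% of all genes. AAGATGG, the core of the YY1 motif, lay there in 14 genes (18.2%) against 6.35% of all genes, and the palindrome CTCGCGAG in 7 (9.09%) against 1.47%. TATAA on the gene's strand in the 50 bases before the start was found in 10 genes (13.0%) and in 6.59% of all genes. None of these strings contains another, and a match describes letters, not binding.

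Most ribosomal protein promoters lay in a loop in every line. In Ishikawa 58 of 77 (75.3%, interval 64.6% to 83.6%) had an anchor over a 500 bp window on a start site, where 60.0% of all autosomal protein-coding genes did. In T-47D 69 did (89.6%, 80.8% to 94.6%) against 50.7% of all genes, and in LNCaP 72 did (93.5%, 85.7% to 97.2%) against 59.2%. In all 3 lists together 55 genes had a loop (71.4%), against 35.0% of all genes. The intervals cover counting error only, and they lay above the value of all genes in each list. The Ishikawa difference depended on weakly supported loops. With at least 5 read pairs 36 genes (46.8%) and 44.6% of all genes had a loop there, and with at least 10 read pairs 21 genes (27.3%) and 28.5% did. At 10 read pairs the T-47D and LNCaP shares were 58.4% and 88.3%, against 23.9% and 43.6% of all genes. With 1 start site per gene the Ishikawa share was 71.4%, against 45.2% of all genes.

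**Figure D1:**
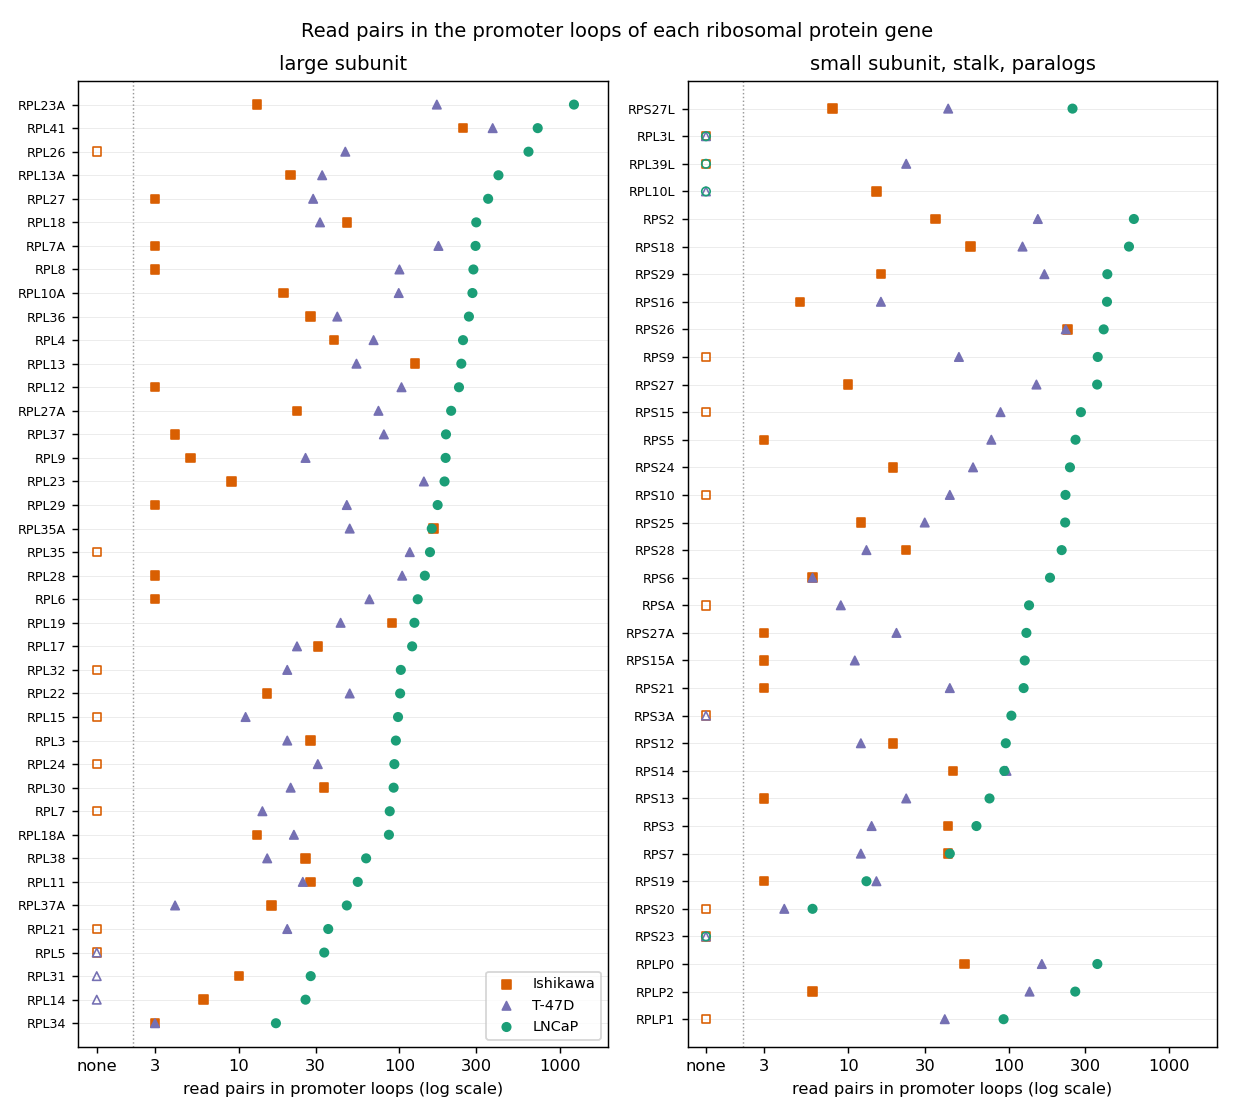
Read pairs in promoter loops of 74 of the 77 genes (log axis), with the 3 lists as squares (Ishikawa), triangles (T-47D) and circles (LNCaP) and open symbols at "none" for a gene without a loop. The lists were not scaled for depth. LNCaP values reach 1223 for RPL23A, and RPL3L and RPS23 are open in all 3 lists.

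The read pairs at each promoter spread widely. Over all 77 genes the median was 6, 32 and 144 read pairs in Ishikawa, T-47D and LNCaP, and over all autosomal protein-coding genes it was 6, 3 and 16. Ranked among all genes, the median ribosomal protein gene stood at percentiles 49.8, 80.1 and 82.6. Across the 77 genes the order of read pairs in T-47D followed that in LNCaP with a Spearman's rho of 0.75, while rho was 0.31 between Ishikawa and T-47D and 0.29 between Ishikawa and LNCaP. These are descriptions across genes, which share libraries and neighbourhoods, and the same values over all genes were 0.68, 0.29 and 0.32.

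By role, of the 40 large subunit genes 32, 37 and 40 had a loop in Ishikawa, T-47D and LNCaP, with median read pairs of 9.5, 37 and 149.5. Small subunit genes had one in 22, 27 and 28 of 30 cases, with medians of 5.5, 21.5 and 157.5. The stalk genes RPLP0 and RPLP2 were looped in every list, and RPLP1 in T-47D and LNCaP. The 27 genes that hold annotated snoRNA genes had medians of 13, 23 and 120 read pairs, and the other 50 had medians of 5, 40.5 and 157, so hosts were not ranked the same way against the rest in each list.

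**Figure D2:**
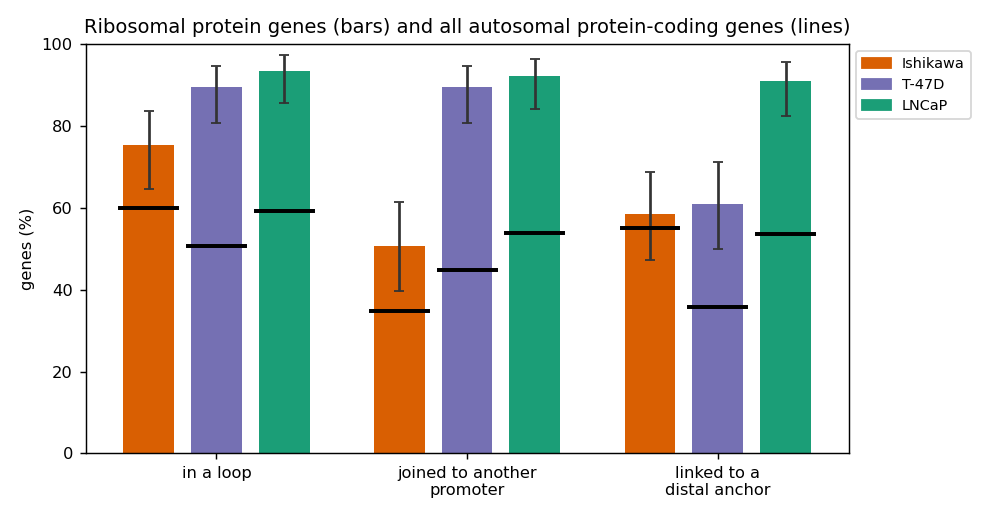
Percent of the 77 genes (bars, 95% Wilson intervals for counting error) with a promoter loop, joined to another promoter, or linked to a distal anchor in each list, and the percent of the 19229 autosomal protein-coding genes (black lines). The bar for distal anchors in Ishikawa, 58.4%, is the one whose line, 55.0%, falls inside its interval.

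Promoter partners were counted apart from distal ones. In Ishikawa 39 genes (50.6%) were joined to the promoter of another protein-coding gene, against 34.8% of all genes, in T-47D 69 (89.6%) against 44.9%, and in LNCaP 71 (92.2%) against 53.9%. In all 3 lists 38 genes (49.4%) were, against 20.5% of all genes. A distal anchor, which holds no protein-coding start site and includes candidate enhancers, was linked to 45 genes in Ishikawa (58.4%, 47.3% to 68.8%) against 55.0% of all genes. In T-47D it was 47 genes (61.0%, 49.9% to 71.2%) against 35.8%, and in LNCaP 70 (90.9%, 82.4% to 95.5%) against 53.5%. With at least 5 read pairs the Ishikawa count was 23 (29.9%), below the 38.1% of all genes, while T-47D (37.7% against 23.4%) and LNCaP (84.4% against 44.8%) stayed above. With 1 start site per gene the Ishikawa count was 51 (66.2%), above the 43.1% of all genes. The place of Ishikawa beside all genes thus changed with the setting.

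Of the partner anchors of ribosomal protein promoters, 48.4% held another promoter in Ishikawa (95% interval 42.0% to 55.0%), 73.1% in T-47D (68.9% to 76.9%) and 59.3% in LNCaP (56.4% to 62.2%). For the promoters of all genes the shares were 28.8%, 65.3% and 50.8%. Of the read pairs, 53.2%, 80.5% and 75.2% ran to other promoters, against 29.6%, 64.6% and 51.4% for all genes. Partners of genes that lie close together are partly the same anchors, so the intervals, which treat each link as separate, are too narrow. With at least 10 read pairs per loop the shares of partner anchors were 58.5%, 85.7% and 72.7%, against 30.0%, 66.4% and 54.4%.

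**Figure D3:**
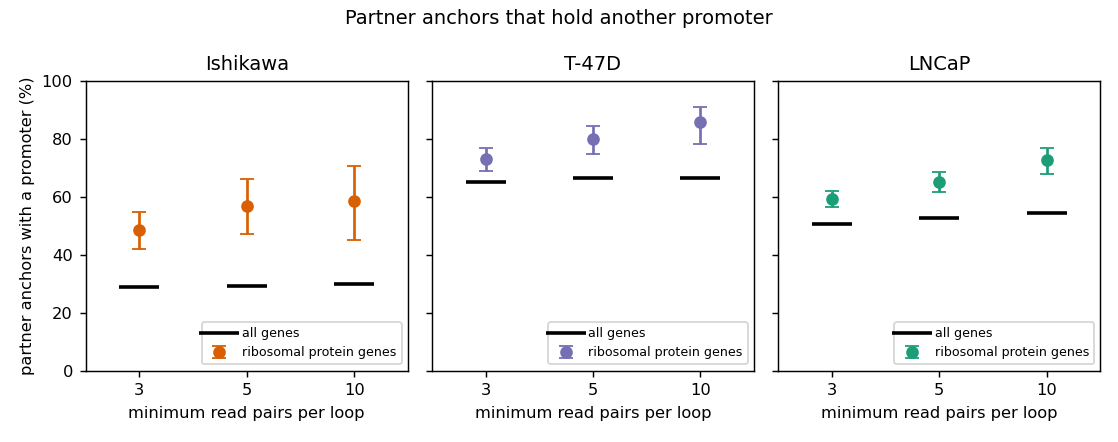
Percent of partner anchors that hold another promoter (points, 95% Wilson intervals) at minima of 3, 5 and 10 read pairs per loop, for ribosomal protein genes and for all autosomal protein-coding genes (black lines). The points lie above the lines at every minimum in all 3 lists, from 48.4% against 28.8% in Ishikawa at 3 read pairs to 85.7% against 66.4% in T-47D at 10.

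Among genes with a loop, the number of distal anchors was not higher throughout. The median was 1 in Ishikawa where that of all looped genes was 3, 1 in T-47D where it was also 1, and 6 in LNCaP where it was 4. The number of promoter partners had medians of 1, 4 and 8, against 1, 2 and 4 for all looped genes. Loops to promoters alone were seen for 13 genes in Ishikawa (22.4% of those looped, against 8.16% of all looped genes), for 22 in T-47D (31.9% against 29.0%) and for 2, RPL36 and RPS19, in LNCaP (2.78% against 9.57%). Of the 22 genes with loops to promoters alone in T-47D, RPL36 was thus the sole gene without a distal anchor in LNCaP. In Ishikawa 19 genes had distal partners alone (32.8% of those looped, against 41.8% of all looped genes), among them RPL11, which with RPL5 binds MDM2 as part of a complex with 5S ribosomal RNA.

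The number of promoter partners varied with the number of genes nearby. Across the 77 genes its Spearman's rho with the count of gene starts within 500 kb was 0.39, 0.65 and 0.73 in the Ishikawa, T-47D and LNCaP lists, and over all genes it was 0.29, 0.28 and 0.30. The median gene had 13 such neighbours, near the 12 of all genes. RPL13A, with 59 neighbours, had 20 promoter partners in LNCaP, and RPLP1, with 4 neighbours, had 3. Loops at these promoters had median spans of 35.4, 99.0 and 148 kb in the same order, against 43.6, 91.3 and 123 kb for loops at the promoters of all genes. Anchors often held more than 1 promoter. Another gene's start site lay in a promoter anchor of 21 of 58 looped genes in Ishikawa (36.2%), 24 of 69 in T-47D (34.8%) and 29 of 72 in LNCaP (40.3%), and loops of such anchors cannot be given to either gene. The shares over all looped genes were 29.3%, 33.7% and 35.4%. Unlike the ribosomal protein counts, these also count read-through records that join a gene to its neighbour.

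RPL41 (ENSG00000229117.9_6, chr12:56510374-56511751), which encodes the smallest protein of the large subunit, led or came close in every list. Its loops held 249, 381 and 727 read pairs in Ishikawa, T-47D and LNCaP, first among the 77 genes in Ishikawa and T-47D and behind RPL23A in LNCaP. It had 17, 26 and 26 promoter partners and 8, 1 and 6 distal anchors. Its anchor also held the start sites of ESYT1 and ZC3H10 in all 3 lists and of ERBB3 and PA2G4 in Ishikawa. In T-47D its strongest loop, 70 read pairs, ran 13.1 kb to the anchor with the PA2G4 promoter, and in LNCaP its strongest, 187 read pairs, ran 8.32 kb to an ESYT1 promoter.

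RPS26 (ENSG00000197728.11_11, chr12:56435135-56438481), a small subunit gene 75.2 kb from RPL41 on chromosome 12, had 233, 227 and 391 read pairs in Ishikawa, T-47D and LNCaP, and Ishikawa and T-47D differed little there although the Ishikawa list held more read pairs in all. The strongest loop of any ribosomal protein promoter in Ishikawa, 51 read pairs, joined it to an intergenic distal anchor at chr12:56445427-56452360. Its next loop there, 34 read pairs, reached the promoter of IKZF4, a zinc finger transcription factor gene. RPL41, RPS26, RPL35A, RPL39L and RPS24 lie in 3 chromosome segments where Ishikawa loops were dense, and what that adds to their counts was not tested.

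RPL35A (ENSG00000182899.17_11, chr3:197677061-197683481), a large subunit gene mutated in some patients with Diamond-Blackfan anaemia, had 163, 49 and 159 read pairs in Ishikawa, T-47D and LNCaP. It had 10 distal anchors in Ishikawa, the most of the 77 genes there, but 0 in T-47D and 4 in LNCaP. The strongest of its Ishikawa distal loops held 25, 24 and 15 read pairs, all to anchors within the neighbouring gene IQCG. A start site of IQCG also lay in the RPL35A promoter anchor in every list, so these loops cannot be given to either gene. Other large subunit genes with many read pairs in Ishikawa were RPL13 with 125 and RPL19 with 90. A loop of 44 read pairs, the second strongest at these promoters in that list, joined the RPL13 anchor to a promoter of CPNE7. That RPL13 anchor also held a start site of CPNE7, so the loop cannot be given to either gene.

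RPL23A (ENSG00000198242.14_11, chr17:27047003-27051377), whose protein sits by the exit of the tunnel for the growing peptide chain, was the most contacted ribosomal protein gene of LNCaP. It had 13, 171 and 1223 read pairs in Ishikawa, T-47D and LNCaP, of which 380 ran to the TRAF4 promoter anchor, 329 to an anchor with the promoters of PHF12 and PIPOX, and 172 to one with DHRS13, FLOT2 and PHF12. In T-47D 58 read pairs ran to TRAF4, 14 to DHRS13 and 8 to PHF12. TRAF4 and PHF12 were not among its 4 partners in Ishikawa. Its anchors also held a start site of RAB34 in every list and of NEK8 and TLCD1 in LNCaP. The TRAF4 contact thus was its strongest in both T-47D and LNCaP, and the PHF12 contact ranked second in LNCaP alone.

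**Figure D4:**
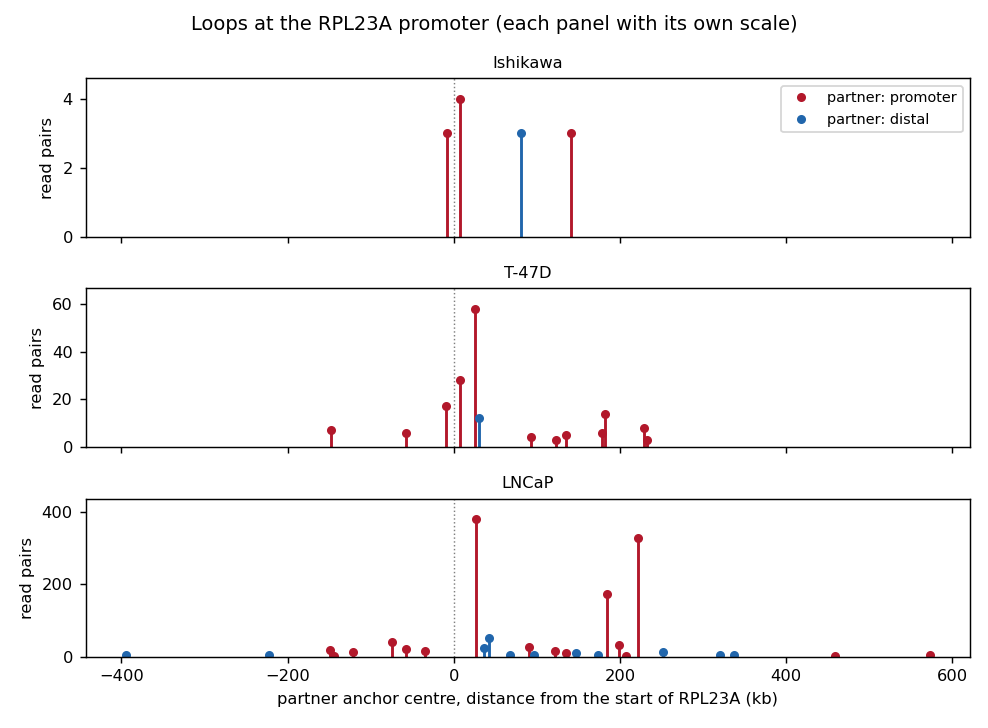
Read pairs of each loop at the RPL23A promoter against the distance of the partner's centre from the gene's start (kb, positive in the direction of transcription), by list, with partners that hold a promoter in red and distal partners in blue. Each panel has its own scale. The tallest stem in T-47D (58 read pairs) and LNCaP (380) is the TRAF4 promoter anchor, and LNCaP has a further stem of 329 read pairs at the PHF12 and PIPOX promoters.

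The other genes with the most read pairs were RPL7A (3 in Ishikawa, 175 in T-47D, 298 in LNCaP), RPS29 (16, 167 and 412), RPL26 (0, 46 and 637), RPS2 (35, 152 and 603) and RPS18 (58, 122 and 562). These counts were not scaled for depth, and as shares of the promoter loop read pairs of each list RPL7A, RPS29 and RPS2 were higher in T-47D than in LNCaP. The strongest loops at ribosomal protein promoters in T-47D joined RPLP0 to the GCN1 promoter (74 read pairs), RPL41 to PA2G4 (70) and RPL35 to ARPC5L (65). The RPL35 anchor itself also held a start site of ARPC5L, so that loop cannot be given to either gene. GCN1 encodes a ribosome-binding protein of the amino acid starvation response. The RPLP0 to GCN1 loop held 174 read pairs in LNCaP, where the third strongest loop at these promoters joined RPL27 to an anchor with RUNDC1 and PTGES3L (193).

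In distal anchors the leading genes differed between lists. After RPL35A (10) and RPL41 (8), the Ishikawa list had RPS3 and RPS26 with 6, and RPL3, RPL4, RPL11, RPL30, RPL38 and RPLP0 with 4. In T-47D RPL7A, RPL12 and RPS27L had 6, and RPLP0, RPS10, RPS14 and RPS29 had 5. In LNCaP RPL26 had 17, RPL10A and RPS27L 16, RPS10 15 and RPS24 14. RPL26 had no loop in Ishikawa, and RPS10 also had none there. RPS27L and RPS10 were thus among the leaders of both T-47D and LNCaP, and RPLP0 of both Ishikawa and T-47D.

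A linked distal anchor in all 3 lists was found for 28 genes (36.4%, 26.5% to 47.5%), against 21.9% of all genes. They were 13 large subunit genes (RPL3, RPL6, RPL10A, RPL11, RPL12, RPL13, RPL22, RPL23, RPL23A, RPL28, RPL37, RPL38 and RPL41), the stalk gene RPLP0, 13 small subunit genes (among them RPS2, RPS3, RPS13, RPS15A, RPS18, RPS24, RPS26, RPS27, RPS27A, RPS28 and RPS29) and the paralog RPS27L. With at least 5 read pairs 8 genes had one (10.4%, against 9.43% of all genes), and with at least 10 it was 3 (3.90% against 2.63%). With 1 start site per gene it was 38 (49.4% against 20.6%).

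For 3 of the 28 the same distal region, by overlapping anchors, was joined in all 3 lists. RPL10A met a region inside TEAD3, a gene of a Hippo pathway transcription factor, with 9, 48 and 75 read pairs in Ishikawa, T-47D and LNCaP, and in T-47D its anchor lay at chr6:35451344-35456413, centred 17.7 kb downstream of the start of RPL10A. RPLP0 met a region inside PXN, the gene of the focal adhesion protein paxillin, with 4, 28 and 36 read pairs, and the T-47D anchor lay at chr12:120665104-120671172, centred 29.1 kb upstream. RPS29 met an intergenic region at chr14:50327489-50329325 in T-47D, with 3, 3 and 7 read pairs, which is at or near the minimum. In Ishikawa this contact ran from an anchor at chr14:50060365-50067082, over another RPS29 start site than the one printed above. That anchor also held a start site of LRR1, so the contact cannot be given to either gene. The TEAD3 and PXN regions were among the strongest distal contacts of these promoters in T-47D, where 48 and 28 read pairs ranked first and level second.

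Some promoters of these genes met each other. Of the 10 pairs of genes with start sites within 2 Mb, 2 were joined in Ishikawa and 3 in each of the other lists, where 1.88%, 3.94% and 7.28% of all such gene pairs were joined in Ishikawa, T-47D and LNCaP, without matching for distance. RPL41 and RPS26 were joined by 23, 25 and 23 read pairs, a near-equal count in lists of unequal depth. RPL19 and RPL23, 350 kb apart, had no loop in Ishikawa, 3 read pairs in T-47D and 12 in LNCaP. RPL3L and RPS2, the closest pair at 8.57 kb, had no loop in any list. In LNCaP RPL13A had 8 read pairs to an anchor 1383 kb away that holds the promoters of KLK2, KLK3, KLK4 and KLK15, the kallikrein genes typical of prostate cells.

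RPL3L and RPS23 had no loop in any list. RPL3L is a paralog of RPL3 made in heart and skeletal muscle, and RPS23 encodes a small subunit protein that every cell uses. RPS23 had 1 gene start within 500 kb.

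The 3 other paralogs differed from each other. RPL10L, a testis-expressed copy of RPL10, had 15 read pairs in 3 loops in Ishikawa, all to distal anchors, and none in T-47D or LNCaP. RPL39L, also known from testis, had 23 read pairs in 4 loops in T-47D and none in the other lists. RPS27L, which p53 induces, had 8, 42 and 250 read pairs and 1, 6 and 16 distal anchors. RPL5 and RPS3A were looped in LNCaP alone, with 34 and 104 read pairs. RPL14 and RPL31 were looped in Ishikawa and LNCaP but not in T-47D (2.60%, against 8.57% of all genes), and 13 genes in T-47D and LNCaP but not in Ishikawa (16.9% against 10.6%).

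T-47D and LNCaP, which were prepared with the same enzyme, were compared by the share of each gene in the read pairs of all promoter loops of its list, with each gene counted as at least 3 read pairs. The median ratio of T-47D to LNCaP over the 73 ribosomal protein genes with a loop in either was 1.10, and over all genes it was 1.27. More than 2-fold higher in T-47D were 15 genes (20.5%), against 36.7% of all genes, and more than 2-fold higher in LNCaP were 15 (20.5%), against 25.9%. Thus 43 of 73 stayed within 2-fold, with 1 list per line and no replicate. The distance from all genes depended on weakly supported loops. With at least 10 read pairs per loop, 29.0% were more than 2-fold higher in T-47D, against 29.1% of all genes. Toward LNCaP it was then 30.4% against 33.4%.

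The 3 widest ratios in each direction included genes with no loop in the other list. Toward T-47D, RPL39L was 33.8-fold higher (23 read pairs against none, counted as 3), RPS19 5.08-fold (15 against 13) and RPS14 4.55-fold (97 against 94). RPS19 is the gene most often mutated in Diamond-Blackfan anaemia, and RPS14 lies in the region deleted in the 5q- syndrome. Toward LNCaP, RPS3A was 7.87-fold higher (104 read pairs against none, counted as 3), RPS6, whose protein is phosphorylated by S6 kinases, 6.85-fold (181 against 6) and RPS16 5.82-fold (410 against 16). The ratios of RPL39L and RPS3A rest on that stand-in count and are not lower limits, because contacts under the minimum are not listed.

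**Figure D5:**
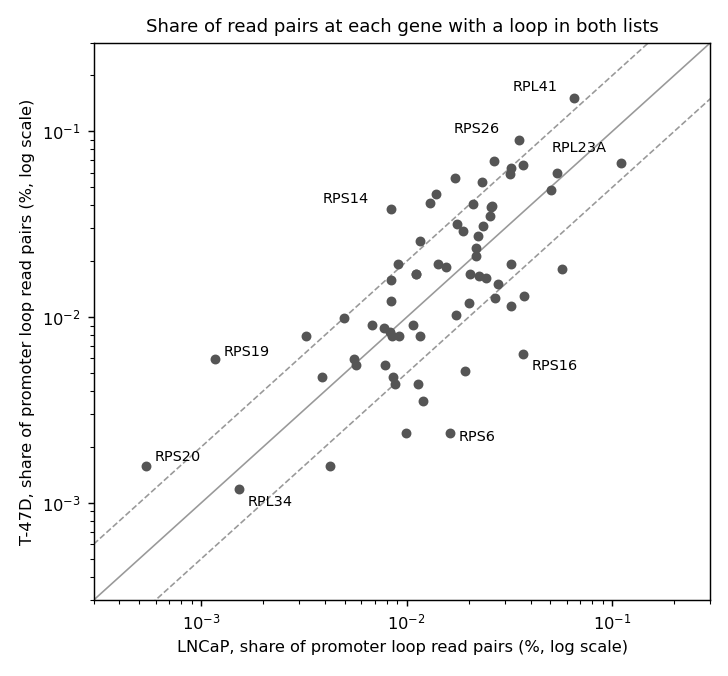
Share of all promoter loop read pairs (%, log axes) at each ribosomal protein gene with a loop in both T-47D and LNCaP, with the line of equal shares (solid) and the 2-fold limits (dashed). Most points lie between the dashed lines, with RPS19 and RPS14 above them and RPS6 and RPS16 below.

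Against Ishikawa the shares shifted one way. They were more than 2-fold higher in T-47D for 51 of 72 genes (70.8%), against 40.1% of all genes, and lower for 5 (6.94%), against 34.0%. In LNCaP they were more than 2-fold higher for 52 of 73 (71.2%), against 39.2%, and lower for 4 (5.48%), against 39.8%. The median ratios were 4.95 for T-47D and 6.50 for LNCaP, where all genes had 1.31 and 1.04. RPL10L and RPL35A were higher in Ishikawa against both other lists, RPL35A 2.18-fold against T-47D and 2.96-fold against LNCaP. RPS7 was also higher in Ishikawa against both, 2.29-fold and 2.82-fold. With anchors of a single gene alone, 31 of 51 genes (60.8%) passed 2-fold in LNCaP over Ishikawa, against 34.3% of all genes. Anchors over the looped promoters had median widths of 3.84 (Ishikawa), 2.74 (T-47D) and 5.56 kb (LNCaP). For all genes they were 5.48, 2.85 and 4.03 kb. With lists thinned to the loop read pairs of the smallest list, 44 of 71 genes (62.0%, against 33.8% of all genes) passed 2-fold in T-47D over Ishikawa. In LNCaP over Ishikawa 44 of 69 did (63.8% against 30.3%). Thinning drew from listed loops only, and the part of width, enzyme and sequencing depth in this shift was not tested.

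The 4 parts of the Ishikawa list had a loop at 26, 24, 46 and 45 of the 77 promoters (33.8%, 31.2%, 59.7% and 58.4%), where 43.1%, 26.3%, 46.5% and 51.8% of all genes had one. A loop in every part was found for 17 genes (22.1%, against 21.2% of all genes), among them RPL41, RPS26, RPL35A, RPL13, RPL19 and RPLP0, and in a single part for 18 (23.4% against 10.6%). The parts thus stood on either side of the value of all genes.

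Promoter partners recurred between lists at higher shares than distal ones. Of the 337 promoter partners in T-47D, 265 (78.6%, 73.9% to 82.7%) overlapped a promoter partner of the same gene in LNCaP, and of the 124 distal anchors 53 (42.7%, 34.4% to 51.5%) overlapped a distal anchor of the same gene. For all genes the shares were 65.7% and 34.0%. Of the 108 promoter partners in Ishikawa 56 (51.9%) were found in T-47D and 59 (54.6%) in LNCaP, against 25.2% and 35.6% for all genes. Of its 115 distal anchors 4 (3.48%) were found in T-47D and 23 (interval 13.7% to 28.2%) in LNCaP, against 4.02% and 10.5%. Read from LNCaP, the list with the most read pairs in loops, 264 of 647 promoter partners (40.8%) were found in T-47D. So were 39 of 444 distal anchors (8.78%), against 35.0% and 8.78% for all genes.

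Other genes of translation gave values of the same order. Of 78 mitochondrial ribosomal protein genes, 55, 62 and 78 had a loop in Ishikawa, T-47D and LNCaP, with median read pairs of 7, 21 and 71 and percentiles of 52.3, 73.2 and 69.7. Of 32 genes of translation initiation and elongation factors, 23, 26 and 30 did, with medians of 11.5, 24.5 and 155.5. Of 20 ribosome assembly genes, 16, 16 and 20 did, with medians of 7.5, 17.5 and 119.5. Promoters made up 46.9%, 71.1% and 57.2% of the partners of the mitochondrial set and 36.4%, 65.9% and 59.1% of those of the translation factors, where the cytosolic set had 48.4%, 73.1% and 59.3%. The differences between the sets were not tested.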

How the data were processed

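Values came from the loop lists that the authors deposited, 1 merged list per cell line, whose last column is a count of read pairs joining 2 anchors, not scaled for depth. Per the methods, reads were aligned to hg19 with HiC-Pro, hichipper called loops, and loops under 3 reads or above a false discovery limit were removed. Anchor starts fell within 4 bases of GATC on GRCh37 for 100% of Ishikawa and LNCaP and 99.99% of T-47D anchors, compared with 2.33% of sampled chromosome 1 positions. Coordinates are therefore given on hg19 (GRCh37) and count from 1.

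Repeat rows of an anchor pair were summed, and pairs of an anchor with itself or across chromosomes were set aside. Promoters were 500 bp windows on every start site of protein-coding genes (GENCODE 44 lifted to GRCh37). Python 3.11.15 with numpy 2.4.6, pandas 2.3.3 and scipy 1.17.1 was used, and figures were drawn with matplotlib 3.10.9. Start-site positions in the sequences are those of canonical transcripts, whereas distances to loops are from the 5′ end of the gene record. The procedure was tested on simulated data.

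Members and gene lists were chosen with earlier results of these data known. Genes named are, per list, the 5 with the most distal anchors and the 5 with the most read pairs, the 3 strongest loops, genes without a loop, joined pairs, genes with distal anchors in all lists, and the 3 widest T-47D to LNCaP ratios each way, with ties up to 10. Others named, such as RPL36, RPL5, RPS7, RPL14, RPL31 and the kallikrein contacts, were chosen after their values were seen. Alternatives were minima of 5 and 10 read pairs, thinning, a 2 kb window, 1 start site per gene, spans of 20 kb to 1 Mb, Ishikawa loops in 2 or more parts, anchors of 1 gene, no paralogs and no dense segments. Some items that these rules name are not reported here.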

Additional observations from a re-analysis of the deposited data

Results flagged for a closer look

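Pairs of an anchor with itself lie outside the loops counted above. A promoter anchor joined to itself was listed for 24 of the 77 genes in Ishikawa (31.2%, against 39.0% of all genes) and for 70 in T-47D (90.9%, against 47.4%), and the LNCaP list holds no such rows. Genes with such a row had a median of 11 (Ishikawa) and 21 (T-47D) read pairs in it. A contact between chromosomes touched a single promoter of the set. RPL23A in T-47D was joined by 3 read pairs, the minimum, to an anchor on chromosome 12 that holds no protein-coding promoter.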

How the results depend on the processing

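Of 180 values (19 results under 10 alternatives, of which 1 touches Ishikawa alone), 135 kept within 1.5 times the reported count or inside its interval and 45 did not. Genes with a loop fell in Ishikawa to 36, 21, 33 and 32 with minima of 5 and 10 read pairs, thinning, and loops in 2 or more parts, in T-47D to 45 with 10 read pairs, and in LNCaP to 44 with anchors of 1 gene. Genes with a distal anchor fell under the same 4 settings in Ishikawa to 23, 13, 21 and 23, in T-47D to 29 and 13 with 5 and 10 read pairs and 30 with anchors of 1 gene, and in LNCaP to 46 thinned and 43 with anchors of 1 gene. In all 3 lists the count was 8, 3, 11 and 13 under the same 4 settings and 17 with anchors of 1 gene. Joined pairs in Ishikawa fell from 2 to 1 under both minima, thinning, spans of 20 kb to 1 Mb, loops in 2 or more parts and no dense segments.

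The promoter share of partners moved to 56.9% and 58.5% in Ishikawa, 79.9% and 85.7% in T-47D and 65.3% and 72.7% in LNCaP with 5 and 10 read pairs, to 73.6% in thinned LNCaP, and to 26.4%, 60.2% and 45.7% with 1 start site per gene, where all genes had 17.7%, 53.5% and 39.6%. Genes past 2-fold in Ishikawa over LNCaP were 7 and 8 with 5 and 10 read pairs, 10 with 1 start site and 8 with anchors of 1 gene, in Ishikawa over T-47D 8 with 10 read pairs, 9 thinned, 10 with 1 start site and 3 with limited spans, and in LNCaP over Ishikawa 31 with anchors of 1 gene. The causes were not tested beyond what each setting removes. No paired analysis was possible because each line has 1 merged list, and for the same reason no replicate could be left out. Thinning used 1 random draw and left 34040 of the LNCaP loops and 45714 of the Ishikawa loops. Loops near the minimum of 3 read pairs limit what Ishikawa can show.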

Other observations

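Ribosomal protein genes have left many processed pseudogenes, copies of their messenger RNAs inserted elsewhere in the genome. The annotation holds 1498 such copies of ribosomal protein genes and 8229 of other genes. In Ishikawa 27.0% of the ribosomal protein copies overlapped a loop anchor (95% interval 24.8% to 29.3%) and 26.8% of the others, in T-47D 2.27% (1.63% to 3.15%) and 2.36%, and in LNCaP 8.48% (7.17% to 10.0%) and 6.79% (6.27% to 7.36%). Copies resemble their source genes, and how reads of such sequence were placed was not tested.

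Ribosomal protein genes with names outside the symbol rule gave values close to those of the set. These 8 genes, among them FAU and RACK1, had a loop in 7, 6 and 8 cases in Ishikawa, T-47D and LNCaP, with median read pairs of 10, 29 and 161.5. SPDEF, a transcription factor gene of prostate and other epithelia, met RPS10 in LNCaP with 28 read pairs and RPL10A, 920 kb away, with 6, and its T-47D contact with RPS10 held 4.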
